A study of Mus musculus with 4 samples.

Results

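Cluster 8 is a group of connecting tubule nuclei in mouse kidney cortex. Its members are the nuclei behind the columns of the deposited table whose names start with cluster number 8. They number 738 of 16195 nuclei, recovered from the lowest values of each column: 197 are from WT, 33 from Sco2KO/KI, 189 from db/db and 319 from Sco2KO/KI;db/db. Single-nucleus RNA sequencing was done on kidney cortex of C57BL/6J mice of 4 genotypes, with 1 library each. WT is wild type. Sco2KO/KI carries a knockout and a knock-in allele of Sco2, whose product hands copper to cytochrome c oxidase while the enzyme is built in mitochondria. In db/db the long leptin receptor that carries the signal is missing, which makes mice obese and diabetic, and Sco2KO/KI;db/db combines the Sco2 alleles with db/db. The sources used here do not give age, sex, treatment or whether a library pooled animals, and all 4 groups share strain, tissue and nuclear preparation.

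The connecting tubule joins the distal convoluted tubule to the collecting duct. Its cells take calcium in through the channel Trpv5, carry it on the binding proteins Calb1 and S100g, and release it through the sodium-calcium exchanger Slc8a1 and calcium pumps, under parathyroid hormone and vitamin D. They also reabsorb sodium through the epithelial sodium channel under aldosterone, and secrete tissue kallikrein, Klk1, into the urine.

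A level is the mean number of unique transcript molecules (UMIs) per 10000 in a nucleus, and runs of 4 values keep the order WT, Sco2KO/KI, db/db, Sco2KO/KI;db/db. With 1 library per genotype there were no replicates and no test, so every difference describes these 4 libraries and cannot be told apart from a difference between animals, dissections or preparations. UMI totals were recovered for 174, 33, 182 and 278 of the nuclei, with medians of 1518, 3076, 1697 and 1635.5. A level of 1 therefore rests on about 22.4, 8.63, 27.5 and 38.9 UMIs in that order, and values of Sco2KO/KI are the least precise. Its column was also the least like the others: across 5138 genes its log2 levels correlated with those of the other columns at Pearson's r of 0.803 to 0.822, and the other pairs at 0.864 to 0.905. Sco2 was at 0.0616, 0, 0 and 0.0986, and Lepr was at most 0.0172, both too low to check a genotype. The Y-linked gene Uty was at 3.11, 4.12, 4.06 and 3.54, and Xist, which is expressed in female cells, was at most 0.00746. This is the pattern of male nuclei in all 4 libraries.

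The markers named for this cluster came with its label, so their levels are no separate check of it. All 5 (Trpv5, Scnn1g, Scnn1b, Klk1 and Egfem1) had a higher mean level over the libraries in cluster 8 than in any of the other 20 clusters. The clusters were made from the same nuclei, so this is a description. Of 6 further connecting tubule markers, 4 were above the mean of the other clusters and 1 was highest in cluster 8. Their summed mean level was 327.4 in cluster 8 and highest in cluster 12, at 781.1. Of 9 principal cell markers, 8 were above the mean of the other clusters and 0 were highest in cluster 8. Egfem1, which encodes an EGF-like repeat protein, was at 16.3 in cluster 8 and 4.70 in cluster 12, the next highest. Klk1 was at 15.8 and 6.48 in the same clusters, and Trpv5 at 2.62 and 1.61. The sodium channel subunits stood much closer to their runner-up, cluster 13: Scnn1g was at 6.63 and 5.05, and Scnn1b at 9.47 and 8.75.

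Of 1469 genes at a level of 1 or more in all 4 columns of cluster 8, 183 were at least 2-fold above the mean of the other clusters and 3 at least 2-fold above the highest other cluster. Those 3 were Egfem1, Klk1 and Adamts16, a secreted protease gene, with log2 ratios to the highest other cluster of 1.78, 1.27 and 1.40. Measured against the average other cluster, the leaders were Egfem1 with 4.26, the urate transporter Slc2a9 with 3.53, Adamts16 with 3.35, Scnn1g with 3.25, Trpv5 with 3.25 and Scnn1b with 3.14. Further down this list were the calcium pump Atp2b2 with 2.94, S100g with 2.85 and Hsd11b2, the enzyme that shields the mineralocorticoid receptor from glucocorticoids, with 2.82.

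The nearest clusters were 12 and 13. Across 8554 genes the mean log2 levels of cluster 8 correlated with those of cluster 12 at r = 0.938, of cluster 13 at 0.935 and of cluster 5 at 0.903. Slc12a3, the thiazide-sensitive salt transporter of the distal convoluted tubule, separated cluster 8 from clusters 5 and 12: its mean level was 3.18 in cluster 8, 148.1 in cluster 5 and 109.7 in cluster 12. The transcription factor Esrrb and the kinase Prkd1 followed the same pattern, at 0.260 and 0.299 in cluster 8, 9.51 and 9.92 in cluster 5, and 4.80 and 5.92 in cluster 12. On the collecting duct side, Aqp2, the vasopressin-regulated water channel, was at 4.95 in cluster 8 and 18.1 in cluster 13, and Aqp3 at 1.77 and 6.23. Slc8a1 set cluster 8 apart from cluster 13, at 295.6 against 29.2, but was higher still in cluster 12, at 730.7. Calb1 had the same order, at 13.9 in cluster 8, 5.30 in cluster 13 and 38.1 in cluster 12. Cluster 8 also carried genes that cluster 12 nearly lacked, among them the kinesin gene Kif26b at 5.56 against 0.0521, Frmpd4 at 23.4 against 0.763 and the calcium channel subunit gene Cacnb2 at 7.48 against 0.190. All 3 were higher still in cluster 13, at 8.18, 36.6 and 18.4.

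**Figure D1:**
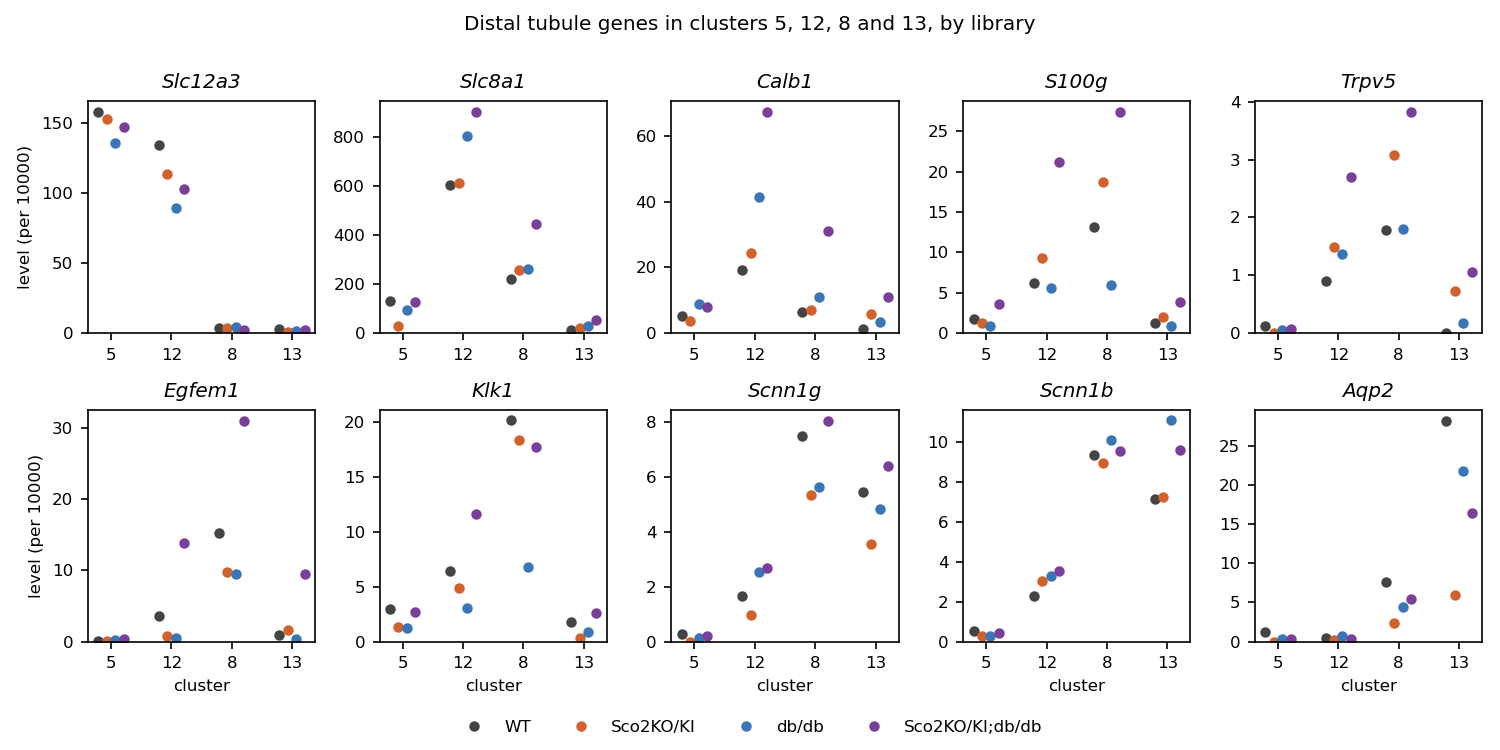
Levels (mean UMIs per 10000) of 10 genes in clusters 5, 12, 8 and 13; each point is 1 library, coloured by genotype, and each panel has its own vertical axis starting at 0. Slc12a3 is high in clusters 5 and 12, Klk1 and Egfem1 are highest in cluster 8, and Aqp2 is highest in cluster 13.

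Markers of vessels, stroma, dividing cells and intercalated cells were near 0. The summed level of 8 endothelial markers was 0.747 to 1.20 in the 4 columns, of 8 stromal markers 0.0908 to 0.655, of 5 cycling markers at most 0.114, and of 8 type A intercalated markers 0.519 to 2.14. The 12 proximal tubule markers summed to 58.3, 53.0, 16.1 and 16.9. None of them was higher in cluster 8 than in the mean of the other clusters. Kap, an androgen-regulated proximal tubule transcript, made up most of the difference, at 33.4, 30.9, 3.64 and 2.86. The part of carried-over proximal RNA was not tested. Markers of the neighbouring segments were well above 0: the 9 principal cell markers summed to 45.9, 36.1, 42.6 and 49.5, and the 8 distal convoluted tubule markers to 40.1, 53.4, 54.2 and 63.5. The 7 podocyte markers summed to 12.1, 14.3, 21.2 and 14.5, and none of them was above the mean of the other clusters.

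Cluster 8 made up 3.82% of the nuclei in WT (exact 95% binomial interval 3.31 to 4.38), 2.79% in Sco2KO/KI (1.93 to 3.90), 4.13% in db/db (3.57 to 4.75) and 6.04% in Sco2KO/KI;db/db (5.42 to 6.72). The share was highest in Sco2KO/KI;db/db, and the intervals of the other libraries overlap each other. They cover the counting of nuclei only, not how a piece of cortex was cut.

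Calcium transport genes were chosen as a list because this segment is known for them, and with earlier results of these data known. Setting Sco2KO/KI;db/db beside db/db addresses the Sco2 genotype in diabetic mice. There, 9 of the 11 calcium genes above a floor of 0.5 had a positive log2 ratio and 5 were at least 2-fold higher. Of all 4249 genes above the floor, 4.38% were at least 2-fold higher. Higher genes made up 61.0% of those past 2-fold, 74.4% after centring on the median gene and 48.9% without genes under 10 kb. The median of the calcium list was 0.76 and that of all genes -0.08. The 5 were Trpv5, Calb1, S100g, Kl and Cyp24a1. Cyp24a1 passed the floor only through Sco2KO/KI;db/db, where it was high, and without it 8 of 10 were positive, 4 were at least 2-fold higher and the median was 0.70. Against WT, 8 of 10 calcium genes were positive in Sco2KO/KI, with a median of 0.08, and 4 of 10 in db/db, with a median of -0.26. In Sco2KO/KI;db/db against Sco2KO/KI, 8 of 11 were positive, Cyp24a1 among them, with a median of 0.30. Ratios are on the log2(level + 0.1) scale, which understates differences between low levels.

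Calb1 (chromosome 4, 15881264 to 15908064, plus strand, mm10), the calcium shuttle of the cytosol, was at 6.53, 6.93, 11.03 and 31.1. The last library stood far above the other 3, and WT and Sco2KO/KI lay side by side. Its approximate counting interval (95%, exact Poisson) was 29.4 to 32.9 in Sco2KO/KI;db/db and 9.82 to 12.3 in db/db. The log2 ratio was 1.49 to db/db and 2.15 to Sco2KO/KI, and the medians over other clusters were 0.93 and 1.59.

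S100g (chromosome X, 162961992 to 162964599, minus strand), the smaller vitamin D-dependent binding protein, was at 13.1, 18.7, 5.92 and 27.4. Here db/db was the lowest library, and the log2 ratio was 2.19 between the diabetic genotypes, 0.51 between the lean ones and -1.13 for db/db against WT. Other clusters also gave S100g a median ratio of 1.77 between the diabetic genotypes, at low levels: in proximal cluster 0 it was at 0.542 in db/db against 2.36 in Sco2KO/KI;db/db.

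Trpv5 (chromosome 6, 41652173 to 41680769, minus strand), the apical entry channel, was at 1.79, 3.08, 1.80 and 3.82. Both libraries with the Sco2 alleles were above both without, with log2 ratios of 0.75 and 1.04, though the counting intervals of WT (1.28 to 2.43) and Sco2KO/KI (2.06 to 4.55) overlap. Trpv6, the related channel, was at most 0.144 in any column.

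Slc8a1 (chromosome 17, 81373105 to 81738377, minus strand), the basolateral exit route, was at 219.5, 254.9, 262.9 and 445.1. The log2 ratio between the diabetic genotypes was 0.76, below 2-fold, and to WT it was 1.02. Of the calcium pumps, Atp2b1 ran from 1.28 to 1.61 and Atp2b4 from 1.76 to 2.63 over the libraries. Atp2b2, which is in none of the lists, was at 4.15, 3.65, 2.38 and 3.95, lowest in db/db, with log2 ratios of -0.78 for db/db against WT and 0.71 between the diabetic genotypes.

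Among the hormone genes, Kl, which encodes the coreceptor klotho, was at 12.3, 17.2, 7.45 and 18.04. Both Sco2 libraries were again above their partners, with log2 ratios of 0.48 and 1.27. The counting intervals of Kl in Sco2KO/KI (14.6 to 20.3) and Sco2KO/KI;db/db (16.7 to 19.4) overlap. The median ratio over 17 other clusters was 0.08 between the diabetic genotypes, but in the neighbouring cluster 13 Kl was at 1.69, 6.73, 2.44 and 6.20, also higher in both Sco2 libraries. In cluster 12 it was at 14.4, 12.5, 14.1 and 18.5, lower in Sco2KO/KI than in WT. The vitamin D receptor gene Vdr was at 6.40, 6.72, 3.98 and 5.91, the parathyroid hormone receptor gene Pth1r at 2.80, 2.47, 2.10 and 3.33, and the calcium-sensing receptor gene Casr at 1.26, 1.33, 0.761 and 1.22. All 3 were lowest in db/db, with no ratio past 2-fold. Cyp24a1, which degrades active vitamin D, was at 0.0413, 0, 0 and 0.558. Its mean level in the proximal clusters was 1.75, above that of cluster 8, and the part of carried-over proximal RNA was not tested.

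**Figure D2:**
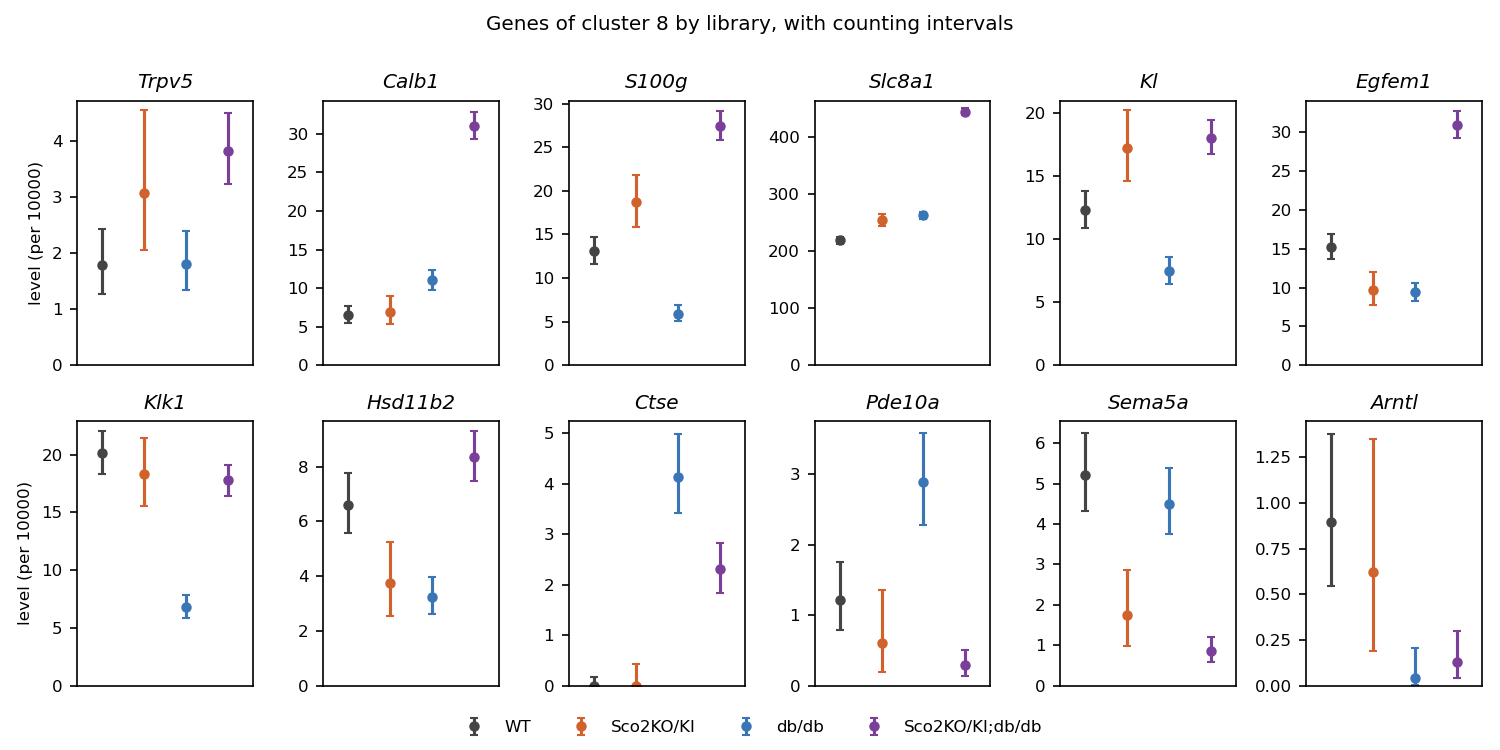
Levels (mean UMIs per 10000) of 12 genes in cluster 8, 1 point per library; bars are approximate 95% Poisson intervals that cover counting error only, and each panel has its own vertical axis starting at 0. Calb1, S100g, Slc8a1 and Egfem1 are highest in Sco2KO/KI;db/db, Ctse is at 0 in both lean libraries and Arntl is low in both diabetic ones.

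Clusters 8 and 12 share calcium genes. Slc12a3 was at 3.51, 3.28, 4.11 and 1.82 in cluster 8, lowest in the library where Calb1 was highest. The 8 distal convoluted tubule markers together went the other way, with sums of 40.1, 53.4, 54.2 and 63.5. The mean level of Slc12a3 in cluster 8, 3.18, was also close to the 3.30 of cluster 9, where endothelial markers were highest. In cluster 12 Calb1 was at 19.2, 24.5, 41.3 and 67.4, S100g at 6.18, 9.23, 5.55 and 21.2, and Trpv5 at 0.893, 1.49, 1.37 and 2.70, so the order of the diabetic libraries was the same there. With clusters 8 and 12 pooled and weighted by nuclei, the log2 ratios between the diabetic genotypes were 0.91 for Calb1, 2.10 for S100g, 1.02 for Trpv5 and 0.33 for Slc8a1. The part of position along the tubule in these differences was not tested.

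The promoters of 4 of these genes are shown because S100g and Kl were highest in Sco2KO/KI;db/db, Klk1 was lowest in db/db and Scnn1b was level across the libraries. Each is the stretch of 250 bases before the gene start in RefSeq on GRCm38.p6, on the gene's strand, and capitals mark matches on either strand to AGGTCA or GGTTCA, hexamers that nuclear receptors such as the vitamin D receptor bind in pairs, to AGAACA, bound by steroid receptors, or to the TATA motif TATAAA. The stretches lie at chrX:162964600-162964849 for S100g, chr5:150952357-150952606 for Kl, chr7:44225110-44225359 for Klk1 and chr7:121864788-121865037 for Scnn1b.
S100g: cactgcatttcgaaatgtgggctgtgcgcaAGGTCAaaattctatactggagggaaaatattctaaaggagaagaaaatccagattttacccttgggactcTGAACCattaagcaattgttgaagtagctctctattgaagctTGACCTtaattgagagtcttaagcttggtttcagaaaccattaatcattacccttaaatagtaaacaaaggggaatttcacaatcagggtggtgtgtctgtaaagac
Kl: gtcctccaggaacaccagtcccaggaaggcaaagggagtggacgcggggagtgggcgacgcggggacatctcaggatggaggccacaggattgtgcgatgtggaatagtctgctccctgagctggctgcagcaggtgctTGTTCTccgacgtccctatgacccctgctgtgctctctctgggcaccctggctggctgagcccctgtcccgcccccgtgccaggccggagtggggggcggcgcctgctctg
Klk1: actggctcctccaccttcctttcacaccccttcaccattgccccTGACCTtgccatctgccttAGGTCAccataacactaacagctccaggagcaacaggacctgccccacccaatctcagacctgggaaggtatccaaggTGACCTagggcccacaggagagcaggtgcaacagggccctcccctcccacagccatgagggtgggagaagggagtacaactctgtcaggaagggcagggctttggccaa
Scnn1b: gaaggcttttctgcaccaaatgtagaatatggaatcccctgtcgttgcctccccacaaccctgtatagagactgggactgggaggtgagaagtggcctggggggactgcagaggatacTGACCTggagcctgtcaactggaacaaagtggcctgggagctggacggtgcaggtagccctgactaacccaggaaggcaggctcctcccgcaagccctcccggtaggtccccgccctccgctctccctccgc
AGGTCA matched 2 times before S100g, 3 times before Klk1, 1 time before Scnn1b and 0 times before Kl. It occurs in 14.04% of 32536 mouse promoter stretches of this length, GGTTCA in 8.81%, AGAACA in 16.03% and TATAAA in 12.3%. A match says only that these letters are present.

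Sodium channel and mineralocorticoid receptor genes had no ratio past 2-fold. The channel subunit Scnn1b was at 9.31, 8.93, 10.1 and 9.54, and Scnn1a at 3.45, 3.79, 4.46 and 3.45. The mineralocorticoid receptor gene Nr3c2 was at 23.8, 28.5, 32.0 and 28.5. None of these had a log2 ratio past 0.42 in size in the 4 comparisons. The third subunit, Scnn1g, was at 7.49, 5.35, 5.63 and 8.04, with ratios of -0.48 in Sco2KO/KI and -0.41 in db/db against WT, and of 0.51 and 0.58 for Sco2KO/KI;db/db against db/db and Sco2KO/KI. Between the diabetic genotypes, 3 of 19 genes of the pathway list above the floor were at least 2-fold higher and 0 lower. There, 4.38% of 4249 genes were at least 2-fold higher and 2.8% lower. In db/db against WT, 2 of 20 were higher and 4 lower, where 2.88% of 4546 genes were at least 2-fold higher and 9.48% lower.

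Klk1 (chromosome 7, 44225360 to 44229618, plus strand) was at 20.1, 18.4, 6.80 and 17.8. The library of db/db stood alone below the other 3, with a log2 ratio to WT of -1.55. Klk1 was lower in db/db than in WT elsewhere too, at 3.09 against 6.39 in cluster 12 and 1.22 against 2.96 in cluster 5. In cluster 5 Sco2KO/KI was also low, at 1.31. Cluster 4 had the other order, with 3.38 in db/db against 2.91 in WT. The gene has near-identical relatives on the same chromosome, so its level depends on how reads were shared among them. Hsd11b2 was at 6.60, 3.75, 3.24 and 8.37, lower in db/db than in WT (-1.004) and higher in Sco2KO/KI;db/db than in Sco2KO/KI (1.14). The kinase gene Sgk1, which relays aldosterone to the channel, was lowest in WT, at 0.564, against 1.94, 1.24 and 1.22. The kinase gene Wnk1, which controls distal salt transport, was at 14.7, 21.1, 26.0 and 32.5, so that WT was lowest and Sco2KO/KI;db/db highest, with a log2 ratio of 1.14 between them.

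Potassium and water genes differed mostly through db/db and Sco2KO/KI. Kcnj10, a basolateral potassium channel, was at 2.84, 2.85, 1.36 and 3.07, and the channel subunit Kcne1 at 1.84, 1.69, 0.538 and 1.84, both lowest in db/db. The renal outer medullary channel gene Kcnj1 was at 5.84, 7.40, 3.53 and 5.50, and Kcnma1, the large calcium-activated channel, at most 0.189. Aqp2 was at 7.55, 2.40, 4.42 and 5.43. All 10 genes of the vasopressin and water list above the floor were lower in Sco2KO/KI than in WT, 2 of them at least 2-fold, with a list median of -0.78, where 10.4% of 4811 genes were at least 2-fold lower and 7.03% higher. Among genes with at least 10 UMIs in the higher library, 594 of the 837 genes past 2-fold were left and 15.99% of them were higher. In db/db against WT, 9 of 10 were lower too, 3 of them at least 2-fold, with a median of -0.67, where 9.48% of 4546 genes were at least 2-fold lower. Aqp2 was lower in Sco2KO/KI outside cluster 8 as well, with a median log2 ratio of -1.52 over 13 other clusters against -1.62 here.

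Egfem1 (chromosome 3, 29082023 to 29691209, plus strand) was at 15.2, 9.75, 9.41 and 31.0. The last library was again the highest, with log2 ratios of 1.71 to db/db and 1.66 to Sco2KO/KI. The medians over other clusters were 0.87 and 1.14, and the neighbours differed more: Egfem1 had 0.541 in db/db against 13.9 in Sco2KO/KI;db/db in cluster 12, and 0.358 against 9.47 in cluster 13. Ptges, which makes prostaglandin E2, was at 0.793, 1.11, 0.469 and 2.03, a ratio of 1.90 to db/db against a median of 0.85 over other clusters. Cell cycle regulator Ccnd1 was at 1.81, 1.51, 1.27 and 3.34, with a ratio of 1.33 to db/db against a median of -0.29 over 17 other clusters.

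Between the diabetic genotypes, 2.8% of genes were at least 2-fold lower with the Sco2 alleles. Pde10a, a phosphodiesterase gene, led them at 1.22, 0.607, 2.89 and 0.288, a log2 ratio of -2.95. It was also highest in db/db in cluster 12, at 7.09, 3.85, 25.2 and 5.08, and in cluster 13, at 2.52, 1.54, 10.8 and 3.76. In cluster 5 it was not, at 8.71, 5.68, 10.5 and 11.6. Stk32a, a kinase gene, was at 0.253, 0.313, 2.16 and 0.430, so that db/db stood above all others. The same held in cluster 12, at 0.971, 0.979, 3.80 and 1.81. Sema5a, a guidance molecule gene, was at 5.20, 1.74, 4.50 and 0.849. It was lower in both libraries with the Sco2 alleles than in their partners, with ratios of -1.53 and -2.28, and the medians over other clusters were -0.63 and -0.88. Pappa, a protease of insulin-like growth factor binding proteins, was the other gene with this pattern at a level of 2 or more, at 3.62, 1.53, 6.46 and 2.76.

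The comparison of Sco2KO/KI with WT rests on 33 nuclei on one side. Among genes at 2 or more, Acss3, an acyl-CoA synthetase gene, was at 1.96 in WT against 7.20, and Sgms2, a sphingomyelin synthase gene, at 3.29 and 11.5, ratios of 1.82 and 1.77. In db/db and Sco2KO/KI;db/db Sgms2 was at 8.09 and 10.2, so WT was the low library. Both genes were higher in cluster 12, at 7.43 for Acss3 and 34.7 for Sgms2. Dmd, the dystrophin gene, was at 0.993 and 3.55. Ntn4, which encodes a netrin of basement membranes, was lower, at 9.04 in WT and 2.17 in Sco2KO/KI, against 9.51 and 6.25 in the diabetic libraries. Lyst, a lysosomal trafficking gene, was likewise lowest in Sco2KO/KI, at 0.888 against 3.02, 3.70 and 4.31.

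The Sco2 comparisons in lean and in diabetic mice share no library. At least 2-fold higher in both were 8 genes, 2.37% of the 338 higher in lean mice and 4.30% of the 186 higher in diabetic mice. At least 2-fold lower in both were 14 genes, 2.81% of 499 and 11.8% of 119, and 34 genes went in opposite directions. Of all genes above the floor, 4.38% were higher and 2.8% lower in the diabetic comparison, and 7.03% higher and 10.4% lower in the lean one, so these shares lay near or below the background. Higher genes were 36.4% of the 22 and 47.6% after centring. With at least 10 UMIs in the higher library, 594 of the 837 genes past 2-fold in lean mice were left. The share of higher genes fell there from 40.4% to 15.99%, so many of the 338 rest on fewer UMIs. Of genes the same way in both, 19 were left, 26.3% of them higher.

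**Figure D3:**
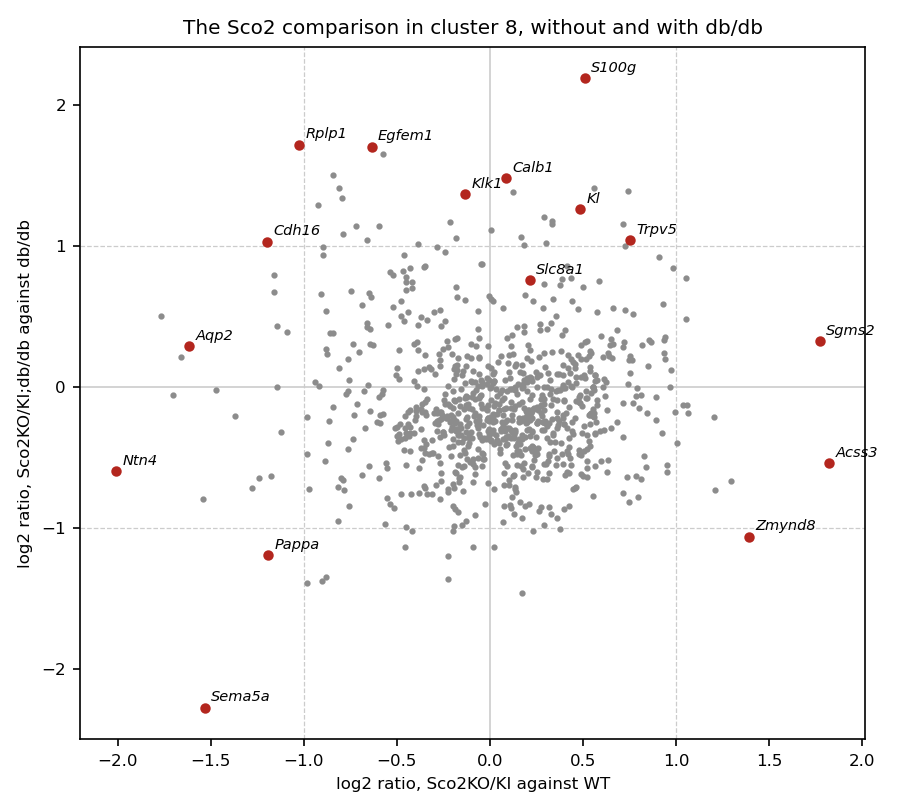
Log2 ratio of Sco2KO/KI against WT (horizontal axis) and between the diabetic genotypes (vertical axis) for 920 genes of cluster 8 at 2 or more in both comparisons; dashed lines mark 2-fold and named genes are in red. Sema5a and Pappa lie in the lower left corner, and Calb1, S100g and Egfem1 lie above the upper dashed line but inside the vertical ones.

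Mitochondrially encoded transcripts summed to 176.6, 248.3, 85.5 and 182.8. Of the 12 subunit genes above the floor, 11 were higher in Sco2KO/KI than in WT with a median log2 ratio of 0.65, 11 were lower in db/db than in WT with -1.02, and 12 were higher in Sco2KO/KI;db/db than in db/db with 1.08. The other clusters gave medians of 0.90, -0.82 and 0.96, in the same directions. The libraries are of nuclei, and the part of RNA carried over from outside them was not tested. The complex I subunit mt-Nd2 was at 9.46, 19.8, 5.02 and 7.05, while the cytochrome c oxidase subunit mt-Co1 was at 29.1, 31.8, 11.2 and 29.3. Nuclear-encoded subunits of cytochrome c oxidase differed the other way in lean mice, with 8 of 10 lower in Sco2KO/KI and a median of -0.57. Of these 10, 2 were at least 2-fold lower, where 10.4% of all 4811 genes were. The other clusters gave a median of -0.07. Between the diabetic genotypes 7 of 10 were higher, 2 of them at least 2-fold, with a median of 0.73. There, 4.38% of all 4249 genes were at least 2-fold higher, and the other clusters gave 0.35. Cox8a, one of these subunits, was at 2.99, 1.97, 0.833 and 2.84. Genes of the integrated stress response were mostly near 0: only Atf4 and Sesn2 of 17 passed the floor, at 0.343 to 0.655 and 0.287 to 0.611.

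Short genes as a class were lower in db/db than in WT, and less so in Sco2KO/KI. Of 416 genes under 10 kb, 367 were lower in db/db than in WT, 170 of them at least 2-fold, with a median log2 ratio of -0.86. Among all 4546 genes above the floor, 9.48% were at least 2-fold lower in db/db than in WT. Genes over 100 kb had a median of 0.19 in that comparison. In Sco2KO/KI against WT, 310 of 488 genes under 10 kb were lower, 102 of them at least 2-fold, with a median of -0.29. In that comparison 10.4% of all 4811 genes were at least 2-fold lower. Against db/db, Sco2KO/KI;db/db had a median of 0.57 for genes under 10 kb and -0.21 for genes over 100 kb. All 17 cytosolic ribosomal protein genes above the floor were lower in db/db than in WT. S100g, Klk1, Hsd11b2, Txnip and Cox8a are under 10 kb, whereas Trpv5, Calb1 and Kl lie between 10 and 100 kb and Slc8a1, Egfem1, Pde10a and Sema5a are over 100 kb. The part of this length pattern in the results for the short genes was not tested. Without genes under 10 kb, 386 of the 562 genes past 2-fold in db/db against WT were left, and 221 of 305 between the diabetic genotypes, 48.9% of them higher with the Sco2 alleles.

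**Figure D4:**
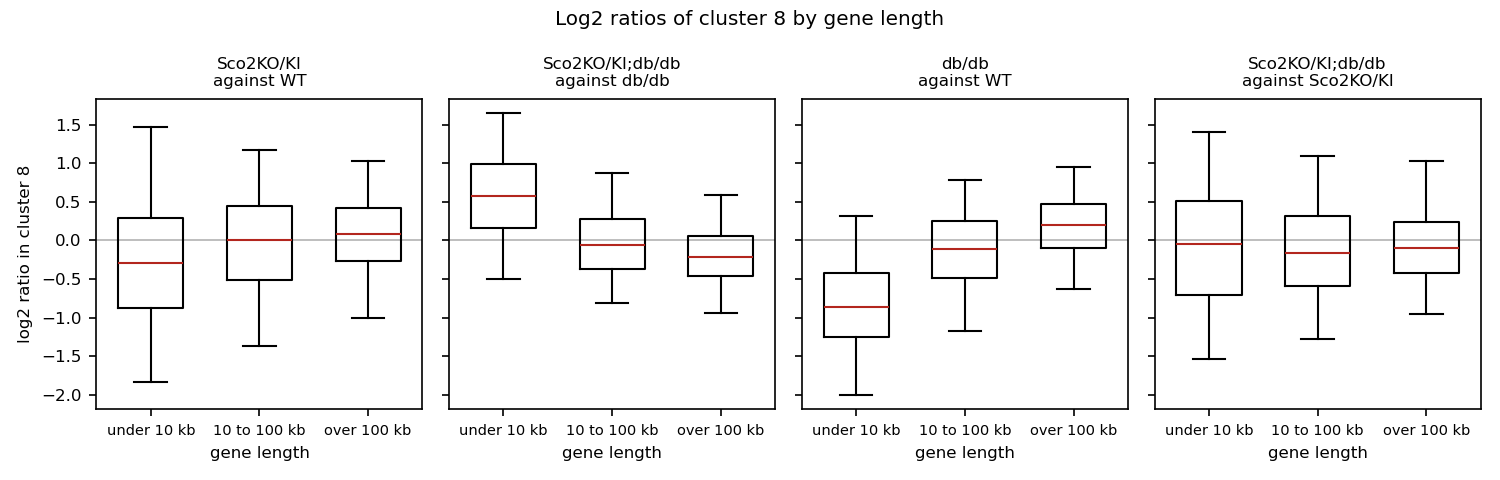
Log2 ratios of cluster 8 genes above the floor by gene length (under 10 kb, 10 to 100 kb, over 100 kb) in the 4 comparisons; red lines are medians, boxes quartiles and whiskers the range from the 5th to the 95th percentile. Short genes lie below 0 in db/db against WT and above 0 between the diabetic genotypes.

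The comparison of db/db with WT addresses obesity and diabetes with intact Sco2. Ctse (chromosome 1, 131638306 to 131675505, plus strand), the aspartic protease cathepsin E, was at 0, 0, 4.13 and 2.30. With the lean libraries set at 3 UMIs, the fold was 30.8 in db/db against WT and 6.61 in Sco2KO/KI;db/db against Sco2KO/KI. These folds leave out the counting error of the diabetic libraries. The counting intervals of Ctse were 0 to 0.165 in WT and 3.42 to 4.98 in db/db. They were 0 to 0.428 in Sco2KO/KI and 1.84 to 2.82 in Sco2KO/KI;db/db. In cluster 13 it was higher still, at 18.04 and 10.6 in the diabetic libraries, and in cluster 12 it was at 0.143 and 0.100. Zbtb16, a transcription factor gene, was at 0.221 in WT and at 1.91, 2.33 and 2.58 in the other libraries, so WT stood apart. The transporter gene Abca13 was at 6.67 and 3.74 in the lean libraries and 18.6 and 9.57 in the diabetic ones. Its mean level was 107.7 in cluster 5 and 73.8 in cluster 12. Hif1a, the oxygen-regulated transcription factor gene, was at 0.945 and 1.25 against 2.75 and 2.61, and Nampt, of NAD synthesis, at 1.12 and 0.779 against 2.51 and 2.36. Tmtc1 was highest in db/db, at 9.09 against 2.20 in WT.

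Of the 10 lowest ratios among genes at 2 or more, 6 belonged to genes higher in the proximal clusters than in cluster 8: Slc7a13, Kap, Cyp4b1, Napsa, Igfbp4 and Ggt1. The others were Calr, Rplp1, Rpl14 and Cox8a, and the ribosomal protein genes have processed copies that can share their reads. Slc7a13, an amino acid transporter gene, had 2.03 in WT against 0.0499 in db/db, Cyp4b1 had 3.16 against 0.378, and the protease gene Napsa had 3.36 against 0.712. Their mean levels in the proximal clusters were 7.17, 11.3 and 4.91, above those of cluster 8, and carried-over proximal RNA and expression in cluster 8 cannot be told apart. Txnip, a glucose-responsive inhibitor of thioredoxin, was at 9.09, 4.74, 2.77 and 6.91. Its log2 ratio in db/db against WT was -1.68, against a median of 0.00 over 18 other clusters. Some other distal clusters had lower levels in db/db as well, with 7.58 in WT against 3.64 in cluster 5, 5.20 against 1.60 in cluster 11 and 4.601 against 2.66 in cluster 12. Cluster 13 did not, with 7.59 in WT against 7.73 in db/db, nor did cluster 4, with 5.43 against 5.66.

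The db/db comparisons with and without the Sco2 alleles share no library either. At least 2-fold higher in both were 16 genes, 12.2% of the 131 higher in db/db against WT and 5.44% of the 294 higher in Sco2KO/KI;db/db against Sco2KO/KI. At least 2-fold lower in both were 46 genes, 10.7% of 431 and 11.2% of 412, and 40 genes went in opposite directions. In the comparison with Sco2KO/KI, 6.45% of 4557 genes were at least 2-fold higher and 9.04% lower, and in that with WT 2.88% and 9.48%. The shares lower in both lay near this background. The shares higher in both lay above it, but they rest on 16 genes and were not tested. Of the 706 genes past 2-fold in Sco2KO/KI;db/db against Sco2KO/KI, 41.6% were higher. That share was 57.1% after centring on the median gene and 57.0% among genes with at least 10 UMIs. Without genes at least as high in the proximal clusters, the number in the same direction in both was 18 in place of 62.

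Of the circadian clock list, 9 genes passed the floor in db/db against WT, with 4 positive and 5 negative ratios, 3 at least 2-fold higher and 2 lower, and a median of -0.32. Of all 4546 genes above the floor there, 2.88% were at least 2-fold higher and 9.48% lower. In Sco2KO/KI;db/db against Sco2KO/KI, 6 of 11 were positive and 5 negative, 2 were at least 2-fold higher and 2 lower, and the median was 0.18. In this comparison 6.45% of all 4557 genes were at least 2-fold higher and 9.04% lower. The 5 genes below were chosen from the list after their values were seen, because each separates the lean from the diabetic libraries. Arntl, the core activator, was at 0.898, 0.623, 0.0421 and 0.129, and its partner Npas2 at 0.363, 0.573, 0.0173 and 0. Per2, a repressor of the loop, was at 0.418, 0.537, 1.95 and 1.01, Dbp at 0.351, 0.251, 0.817 and 1.84, and Tef at 1.59, 2.19, 4.23 and 2.85. No source used here gives the hour of collection, and its part was not tested. Arntl rests on about 20, 5, 1 and 5 UMIs.

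**Figure D5:**
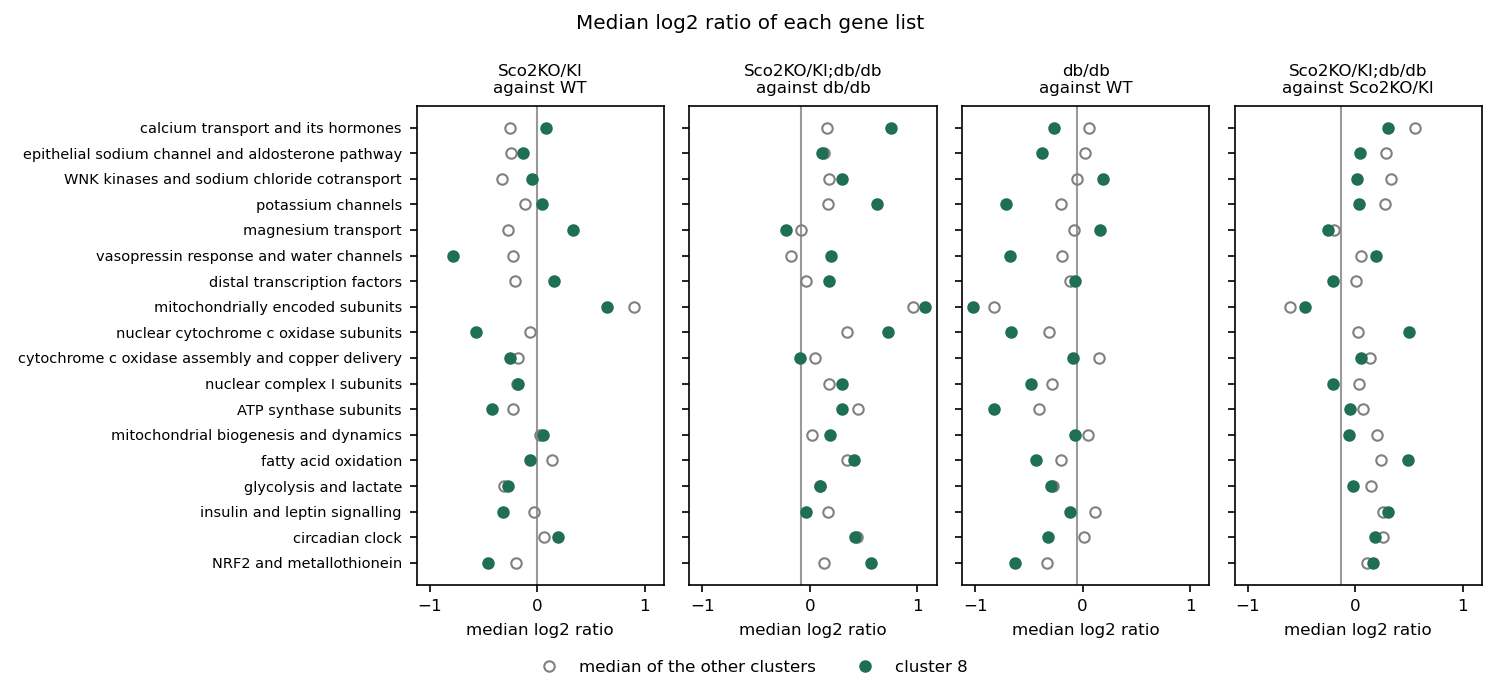
Median log2 ratio of 18 gene lists in cluster 8 (filled points) and the median of the other clusters for the same genes (open points) in the 4 comparisons; the grey line is the median of all genes of cluster 8 above the floor. Calcium genes lie right of the line between the diabetic genotypes, at 0.76, and mitochondrially encoded subunits lie at 0.65, 1.08, -1.02 and -0.46 in the 4 comparisons.

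Of the 9 genes of WNK kinases and sodium chloride cotransport above the floor, none was 2-fold higher and 1 was 2-fold lower between the diabetic genotypes, with a median of 0.30. Among all 4249 genes above the floor, 4.38% were at least 2-fold higher and 2.8% lower there. The injury and fibrosis genes were at 0.621 or below apart from Spp1, Clu, Col4a1 and Col4a2, with Havcr1 at most 0.0966 and Lcn2 at most 0.0407. Spp1, which encodes osteopontin, was at 7.33, 4.19, 4.45 and 9.58, above its mean level of 1.80 in the proximal clusters. Of the segment's transcription factors, Tfcp2l1 ran from 16.3 to 19.8, Gata3 from 3.37 to 4.31 and Tfap2b from 3.79 to 5.54, while Gata2 was at 2.80 in WT and 1.06 to 1.38 elsewhere.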

How the data were processed

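The deposited values are a normalised signal: each column averages, for 1 cluster and library, UMIs scaled to 10000 in every nucleus, as read from the values, whose columns each total 10000. Cell Ranger, Seurat and mm10 are named per the submitters' processing notes. The sources used here do not give versions, filters, doublet treatment or clustering settings, and barcodes were not analysed here. Of 21481 entries, 25 with dates for names were left out. All 83 columns were mapped to genotypes by library code. Nuclei were recovered as the largest number dividing at least 80% of the whole quotients of 10000 by low values (relative tolerance 1e-10), and UMI totals from the same quotients; nuclei without one were given the lowest total of their column, which can understate UMI numbers and widen intervals. Both steps were tested on simulated data, where nuclei were recovered exactly and mean UMI totals were never overstated but in some cases strongly understated, so UMI numbers may be too low. Log2 ratios used a pseudocount of 0.1 and genes at 0.5 or more in at least 1 of the 2 libraries. Named genes are list members, the identity leaders, genes past 2-fold the same way in both Sco2 or both db/db comparisons and, per comparison, the highest and lowest ratios among genes at 2 or more, also against the median of other clusters with at least 20 nuclei in both libraries. Members and lists were chosen with earlier results of these data known. Gene positions are from GENCODE vM21. Python 3.11.15 with NumPy 2.4.6, pandas 2.3.3, SciPy 1.17.1 and Matplotlib 3.10.9 was used. Promoter sequences are from RefSeq on GRCm38.p6.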

Additional observations from a re-analysis of the deposited data

Results flagged for a closer look

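5 differences were marked because, for a gene at 2 or more in each comparison, the 2 libraries of one background differed in one direction by at least 2-fold and those of the other background in the opposite direction. Each background has 1 library per genotype, so the differences were not tested. Cdh16, which encodes a kidney-specific cadherin, was at 6.18, 2.64, 2.78 and 5.79, in the order used above. Its log2 ratio for the Sco2 alleles was -1.20 in lean and 1.03 in diabetic mice, a difference of -2.23, and its ratios for db/db were -1.13 and 1.10, again a difference of -2.23 by construction. Rplp1, a ribosomal stalk protein gene, was at 2.41, 1.14, 0.579 and 2.14, with ratios for the Sco2 alleles of -1.02 and 1.72 and a difference of -2.75. Zmynd8, a chromatin reader gene, was at 0.916, 2.57, 2.69 and 1.24, with ratios of 1.39 and -1.06 and a difference of 2.45. Hsd11b2 had ratios for db/db of -1.004 without and 1.14 with the Sco2 alleles, a difference of -2.14.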

How the results depend on the processing

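Of 837 genes past 2-fold in Sco2KO/KI against WT, a pseudocount of 0.5 left 190, a floor of 1.0 left 292 and no floor gave 2727. In the same order, 305 between the diabetic genotypes became 64, 125 and 973, 562 in db/db against WT became 131, 239 and 1549, and 706 in Sco2KO/KI;db/db against Sco2KO/KI became 150, 262 and 2372. The 22 genes past 2-fold the same way in both Sco2 comparisons became 4, 10 and 107, and 36 with a pseudocount of 0.01. The 62 of both db/db comparisons became 14, 26 and 198. Alternatives added after seeing the data left out genes at least as high in the proximal clusters (549, 192, 359 and 434 in the 4 comparisons, and 18 in both db/db comparisons), genes under 10 kb, genes with fewer than 10 UMIs, took clusters 8 and 12 together, or left out Cyp24a1. The 183 genes of cluster 8 became 3 against the highest other cluster. List medians changed sign with no floor in db/db against WT for potassium channels (-0.71 to 0.32) and tubular injury and fibrosis (-0.55 to 0.16), and with a floor of 1.0 in Sco2KO/KI;db/db against Sco2KO/KI for fatty acid oxidation (0.49 to -0.11). Immediate early and heat shock genes went from -0.28 to -1.52 there. Fewer or more genes passed each floor; beyond that the cause was not tested. No paired analysis was possible because each genotype has 1 library. Depth limits Sco2KO/KI most: 3 UMIs there equal a level of 0.348, against 0.0772 in Sco2KO/KI;db/db.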
